A study of Bos taurus with 90 samples.

Results

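The 100 genes described here were those whose abundance in cumulus cells (CCs) had the strongest negative rank correlation with diameter across bovine antral follicles. They were chosen by their Spearman rho between abundance (CPM, a gene's count divided by the library's total, times 1000000) and follicle diameter. The rho was taken over the CC pools of 26 follicles, among the 8138 genes of 27270 with a mean CPM of at least 10 in those pools. Cumulus cells surround the oocyte and reach it through fine projections that cross the zona pellucida, through which both cells exchange metabolites and signals. Mural granulosa cells (MGCs) line the wall of the same follicle, make most of its steroid hormone together with the theca, and face a different set of signals. Follicle diameter is the usual measure of how far an antral follicle has grown, and the oocyte's capacity to support an embryo is known to increase with it.

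The study took 30 follicles from slaughterhouse cattle ovaries, 10 small, 10 medium and 10 large, and sequenced MGCs, a pool of tightly adherent CCs and the single oocyte of each, which gave 90 libraries. No treatment was applied to any group, and the labels give follicle size as the difference between the groups, although the follicle names also differ between them, as described below. The follicles came from several animals, and which follicle came from which animal was not given. CC pools and oocytes were amplified by SMART-seq2, whereas MGC libraries were prepared from bulk RNA, so levels are compared within a cell type and only roughly between them. The 3 follicles that the study removed and 1 further follicle, whose small CC pool held counts for only 1066 genes, were left out of the choice. The 26 follicles retained were 8 small (3.1 to 3.8 mm), 8 medium (6.2 to 7.0 mm) and 10 large (9.6 to 11.6 mm), and for each its MGC and oocyte libraries were retained too.

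Totals ranged from 8760201 to 40180192 counts in the CC pools, from 26739954 to 39266980 in MGCs and from 8442938 to 53173320 in oocytes. The small CC pools CS50501 and CS71701 stood apart from the other pools. Their median Spearman correlation with the other CC pools over the 8138 genes was 0.567 and 0.609, against 0.635 or more in the rest, and their 10 most abundant genes held 26.3% and 21.3% of counts, against at most 19.7% in the rest. Their TMM scaling factors, 0.449 and 0.606, were also the lowest of the CC pools, the next being 0.812. The main values that rest on these pools are therefore given with and without them. The deposited table lists Ensembl identifiers only, and since none of them could be paired with a symbol, the genes below are given by their rank in the list, with 4 identifiers spelled out. For the same reason the labelled cell types were not checked against marker genes here.

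Among the chosen genes, rho in the CC pools ran from -0.774 to -0.593, with a median of -0.627. Over all 8138 genes the median was 0.01 and 48.7% of genes had a negative rho. CPM add up to the same total in every pool, so these values cannot show a fall of all genes together. A rho of 0.593 or more was held by 196 genes, so as steep a rise was more frequent than as steep a fall. The 98th, 99th and 100th genes shared a rho of -0.593, and the first 3 genes outside the list had -0.592, -0.591 and -0.589, so the limit cut through a continuous range. These values chose the genes and are given as a description. With the 26 diameters permuted 100 times, the 100th lowest rho had a median of -0.396 and ranged from -0.600 to -0.267, and in 1 of the 100 permutations it was as low as in the data. The lowest single rho of a permutation ranged from -0.747 to -0.449 and was never as low as -0.774. The diameters fall in 3 separate clusters, and within them the order was weaker. Within small follicles the median rho of the chosen genes was -0.11 (n = 8 pools), against 0.08 for all 8138 genes, and without CS50501 and CS71701 it was -0.20 (n = 6) against -0.03. Within medium follicles it was -0.40 (n = 8) against 0.05, and within large follicles -0.46 (n = 10) against -0.15. Negative values were held by 60, 91 and 86 of the 100 genes in small, medium and large follicles, and by 33.9%, 45.4% and 59.7% of all ranked genes.

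**Figure D1:**
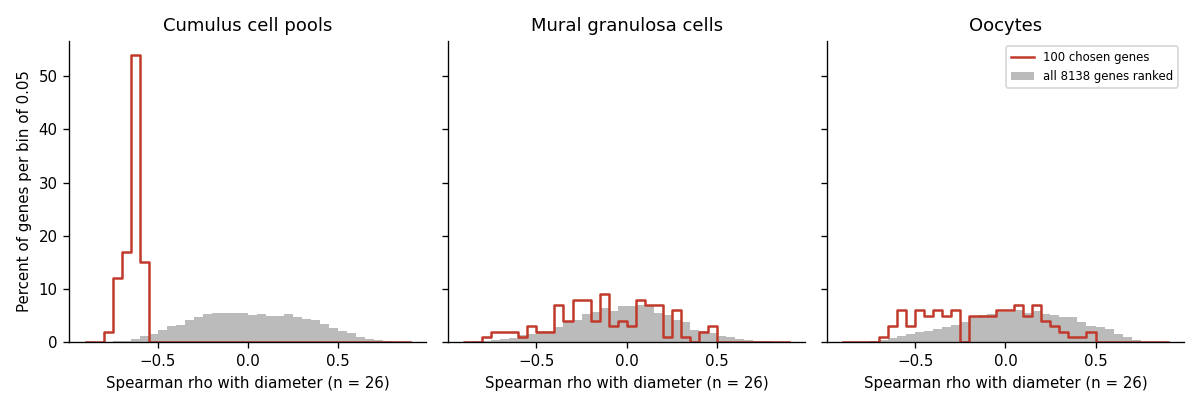
Percent of genes (y axis) per bin of Spearman rho between CPM and follicle diameter (x axis, n = 26 libraries per cell type), for all 8138 genes ranked (grey) and the 100 chosen genes (red line). In CC pools the chosen genes lie below -0.59 by choice, whereas in MGCs and oocytes they spread over both signs, from -0.777 to 0.473 and from -0.690 to 0.465.

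The decline was larger between medium and large follicles than between small and medium ones. On the log2(CPM + 1) scale, the median over the 100 genes of the difference between stage medians was -0.17 for the first step (small to medium) and -0.55 for the second (medium to large), against 0.01 and 0.02 for all ranked genes. From small to medium follicles 79 of the 100 genes had a lower median, against 48.1% of all ranked genes. The differences of the 100 genes ran from -1.07 to 0.43. From medium to large follicles all 100 had a lower median, against 48.6% of all ranked genes, with differences from -1.61 to -0.04. For 84 genes the second step was the larger one. The stages are not evenly spaced in mm, and the steps were not scaled for this. Small and large follicles together differed by a median of -0.76 on the log2 scale, a 1.69-fold lower level, and the genes ranged from 1.12-fold to 3.38-fold lower. Only 18 genes were lower by more than 2-fold. Neither this count nor that of the 84 genes was computed over all ranked genes, so nothing further is read from them. The medians without CS50501 and CS71701 gave -0.68 for the same difference, with all 100 genes still lower in large follicles. The first step then was -0.10, close to the -0.08 of all ranked genes. A lower median in medium than in small pools was held by 66 of the 100 genes and by 4816 of all 8138 ranked genes. After scaling by TMM in place of library totals, the 3 differences were -0.20, -0.52 and -0.73, and again all 100 genes had lower medians in large than in small follicles. The choice of genes favours this count in each case. In pools of cells a smaller share of cells expressing a gene and less RNA per cell cannot be told apart.

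Every chosen gene was detected in every one of the 26 CC pools, the lowest count being 12, so none of the values rests on missing detection. Together the 100 genes held between 1.34% and 3.82% of a small pool's counts (median 2.28%, or 1.61% without CS50501 and CS71701), between 1.18% and 2.72% of a medium pool's (median 1.53%) and between 0.52% and 1.85% of a large pool's (median 1.03%). The ranges of the 3 stages overlapped. As a measure that gives each gene the same weight, the median over the 100 genes of log2(CPM + 1) minus the gene's own mean lay between 0.18 and 0.69 in small pools (median 0.32). In medium pools it lay between -0.27 and 0.58 (median 0.13), and in large pools between -0.78 and 0.05 (median -0.44). On this measure the small and large pools did not overlap, which the choice of genes favours. The highest values were 0.69 and 0.67, in CS50501 and CS71701, and the lowest were -0.78 and -0.77, in large pools of 11.6 and 11.2 mm. The CC pool CM72403, which the study retained, had the lowest value of the medium pools, -0.27, and correlated less with the other pools (0.635) than any pool but CS50501 and CS71701.

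**Figure D2:**
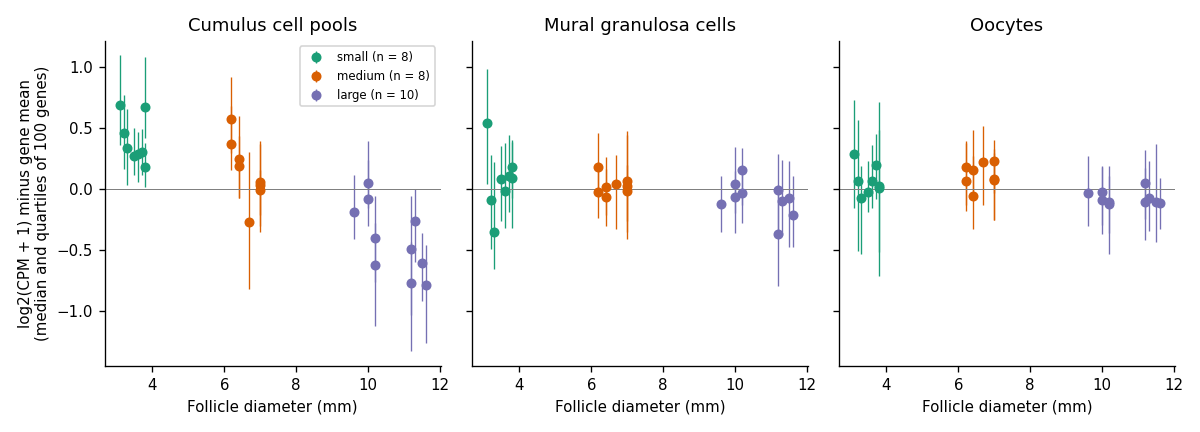
Median (point) and quartiles (bars) over the 100 chosen genes of log2(CPM + 1) minus each gene's mean over the 26 libraries of that cell type (y axis), by follicle diameter in mm (x axis) and stage (colour). CC pools run from 0.69 in the smallest follicle to -0.78 in the largest, whereas the medians lie between -0.36 and 0.55 in MGCs and between -0.13 and 0.29 in oocytes.

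The gene with the lowest rho, ENSBTAG00000051862, had CPM values from 45.2 to 256.5 in small CC pools (median 63.3), from 35.2 to 60.7 in medium pools (median 49.3) and from 21.7 to 52.8 in large pools (median 31.2). Its 2 highest values, 256.5 and 213, belonged to CS50501 and CS71701, and the other small pools reached at most 95.1. The stages overlapped, since the lowest small pool at 45.2 CPM lay below the highest large pool at 52.8. Its slope in the edgeR fit was -0.31 log2 per mm (SE 0.05, n = 26), and -0.13 without the follicles of these 2 pools. ENSBTAG00000002306, the second gene, ranged from 71.8 to 104 CPM in small pools (median 79.7), from 44.0 to 133 in medium pools (median 74.6) and from 36.9 to 60.6 in large pools (median 50.5). All 8 small pools lay above all 10 large pools, while the medium pools spanned both, and its slope was -0.15 log2 per mm (SE 0.03). Such a complete separation of small from large pools was found for 4 of the 100 genes (ranks 2, 19, 33 and 48). They were the only 4 of the 8138 ranked genes to show it in this direction, or 0.0492%, and since the ranking favours this pattern nothing further is read from the count.

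**Figure D3:**
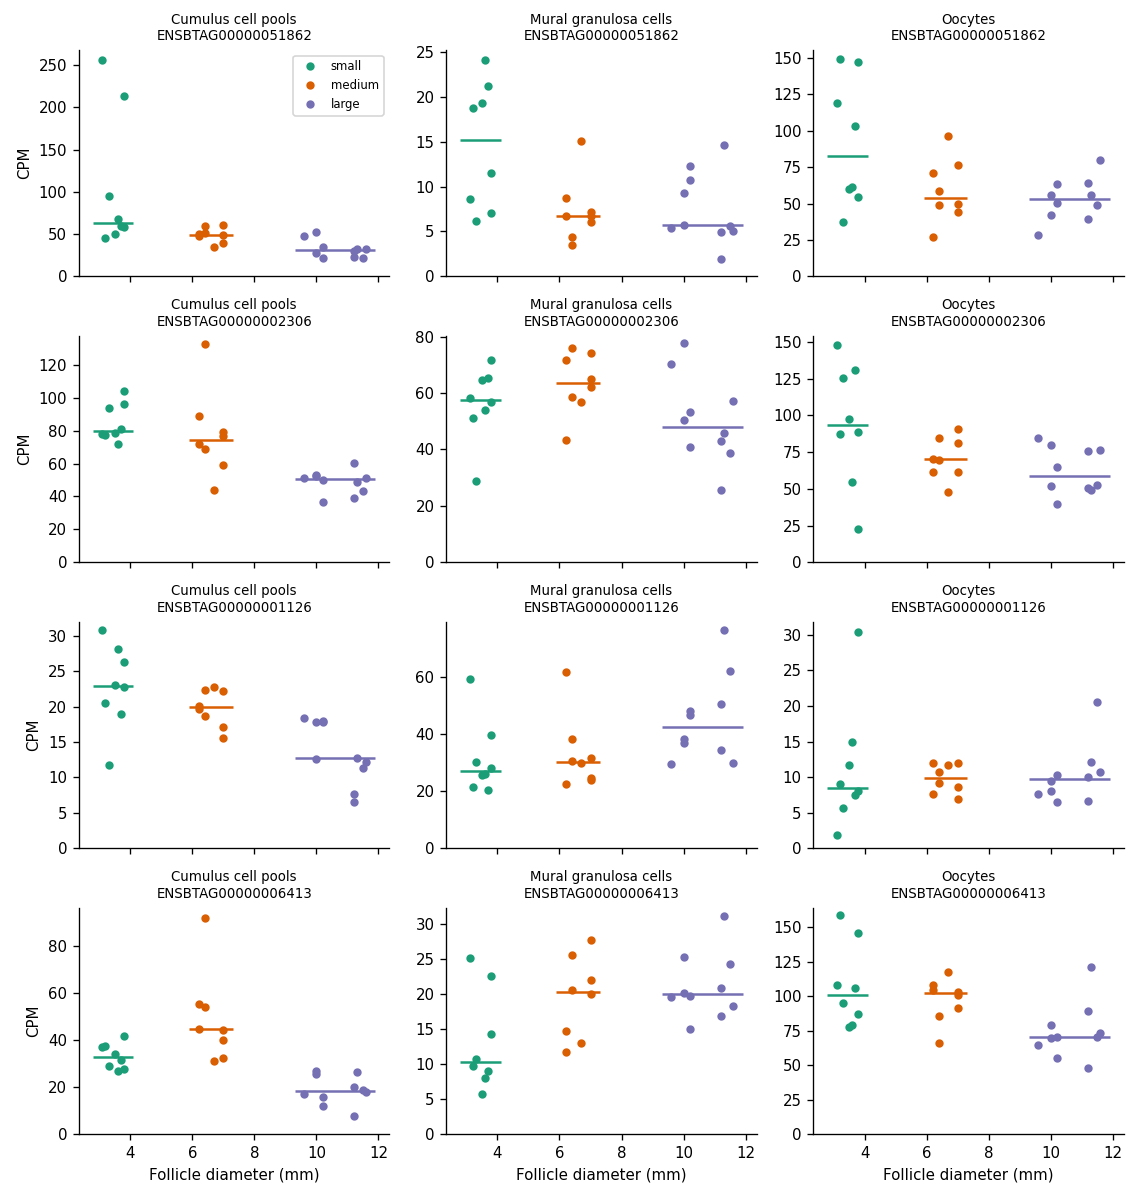
CPM (y axis) of the genes ranked 1, 2, 7 and 48 (rows, from the top) against follicle diameter in mm (x axis) in CC pools, MGCs and oocytes (columns). Each point is 1 library, colours mark the stage and horizontal lines are stage medians. The bottom row shows a gene with medians of 32.9, 44.5 and 18.3 CPM in small, medium and large CC pools, of 10.3, 20.3 and 20.02 in MGCs and of 100.5, 102 and 70.2 in oocytes.

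In the edgeR fit of CC counts on diameter, the slopes of the 100 genes ranged from -0.37 to -0.10 log2 per mm, with a median of -0.17 and a median SE of 0.04. Of the 100 genes, 97 were past the threshold for a negative slope (Benjamini-Hochberg adjusted p under 0.05), against 5.06% of the 11474 genes tested. This count follows from how the genes were chosen. In the same fit without the follicles of CS50501 and CS71701, 5 of the 100 genes were past the threshold and 79 had an unadjusted p under 0.05, and no other gene of the 11474 was called falling. All 100 slopes were negative without these follicles, but they were shallower, from -0.25 to -0.05 with a median of -0.10. Follicle names fall into sets that share their first 3 digits, whose meaning the labels do not state. With this name prefix as a covariate, 1 of the 100 genes and 0.113% of all genes were called falling, and all 100 slopes again were negative. The 26 follicles carry 11 such prefixes, and 5 prefixes, with 16 follicles, hold more than 1 stage. With CPM ranks centred within each prefix, the median rho of the 100 genes was -0.67 and the highest -0.33, against a median of -0.07 for all ranked genes. The same pools and diameters chose the genes, so negative values here and in the fits above are favoured by the choice.

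Which genes made up the list depended on single follicles. When the rule was applied again without each pool in turn, between 51 and 94 of the 100 genes were chosen again. Fewest were kept without CS50501, the pool of the smallest follicle (51 genes), without the large pool CL50505 of the same prefix (54 genes) and without the small pool CS70501 (58 genes). Without both CS50501 and CS71701, 38 genes were chosen again. The 100 genes themselves had a median rho of -0.61 without these 2 pools, and none was above -0.53, while other genes took places in the list. The remaining pools had entered the choice, which favours a negative rho for all 100. Without CM72403, 86 genes were kept and the median rho was -0.65.

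**Figure D4:**
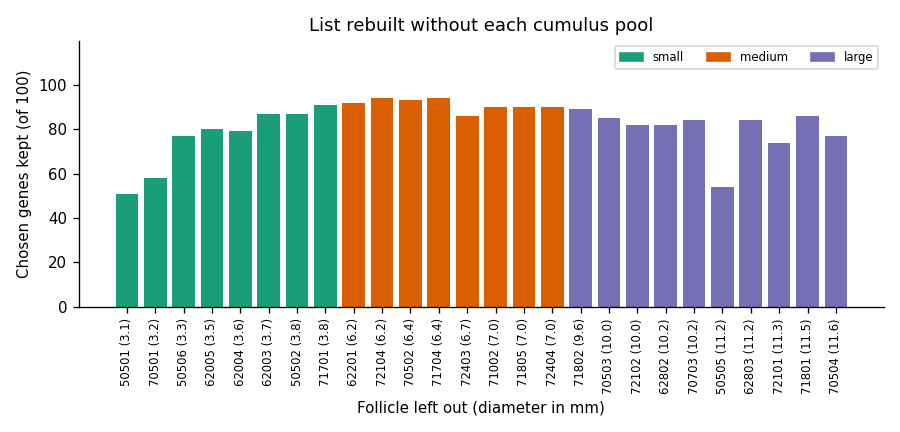
Number of the 100 chosen genes that were chosen again (y axis) when the CC pool of 1 follicle was left out (x axis, follicle identifier and diameter in mm, colours mark the stage). Bars range from 51 genes without CS50501 to 94 without CM72104 and CM71704.

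In mean abundance the chosen genes resembled the other ranked genes, with mean CPM in the CC pools from 10.8 to 4541 and a median of 33.6, against 37.8 for all 8138. Mean values over 100 CPM were held by 17 genes. The 4 most abundant genes (ranks 91, 89, 26 and 43) lay close together in the deposited table, as did the gene ranked 40. These 5 genes were found within 14 consecutive rows, 27243 to 27256 of 27270, whereas no pair of the other 95 genes was closer than 6 rows. Of the 7 genes in those rows that were abundant enough to be ranked, 6 had a negative rho. The 5 genes together held 0.61% to 2.54% of counts in small CC pools (median 1.49%), 0.51% to 1.82% in medium pools (median 0.96%) and 0.16% to 1.18% in large pools (median 0.62%). The gene ranked 91 was the most abundant, with 2623 to 14486 CPM in small pools (median 5244), 2203 to 7407 in medium pools (median 4130) and 863 to 6026 in large pools (median 2626). Its stages overlapped widely, and its slope was -0.18 log2 per mm (SE 0.05).

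Within stages the chosen genes varied together to some degree. After the stage mean of each gene was taken out, the median Pearson correlation over pairs of the 100 genes was 0.28 across the 26 pools, and 79.9% of pairs were positive, against 0.19 and 65.6% for pairs of all ranked genes. Without CS50501 and CS71701 the medians were 0.27 and 0.06. The pools share library depth and composition between genes, and the choice used the order of diameters within stages too, so these correlations are a description.

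The CC pools of the 3 follicles that the study removed were not used in the choice and gave a look at CC values outside it. In the small pool CS70702, 49 of the 100 genes were higher than in both medium pools, CM71804 and CM71001, against 32.6% of all ranked genes, and 7 were lower than in both, against 17.2%. The median difference between the small pool and the mean of both medium pools was 0.37 on the log2(CPM + 1) scale for the chosen genes and 0.19 for all ranked genes. Relative to the mean of the 26 pools, the chosen genes had medians of 0.29 in the small pool, -0.24 in CM71804 and 0.18 in CM71001, against 0.26, 0.15 and -0.03 for all ranked genes. Set against all ranked genes, the chosen genes were thus lowest in CM71804 and highest in the other medium pool, not in the small one. With 1 small and 2 medium pools no exact permutation test could reach p under 0.05, and none was made. The small pool held counts for 23838 genes, more than any of the 26 pools (11872 to 18588), and the study had removed it for a low mapping rate, whose part in these values was not tested. In CS70701, the pool with counts for few genes, 9 of the 100 genes had a count.

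MGC and oocyte counts were not used in the choice, and their slopes on diameter were tested. They come from the same follicles at the same diameters as the CC pools. In MGCs 99 of the 100 genes passed the filter on low counts. The median slope of the 99 was -0.02 log2 per mm, against 0.00 for all 12539 genes tested, the slopes ranged from -0.42 to 0.10, and 67 were negative (67.7%, against 52.1% of all genes). Of the 99 genes, 12 fell with diameter in MGCs (12.1%), against 3.74% of all genes tested and 3.56% of the ranked genes tested. In the other direction 2 rose (2.02%), against 3.25% of all genes tested. At an unadjusted p under 0.05, 18 of the 99 had a negative slope (18.2%, against 11.1% of all genes) and 5 a positive slope (5.05%, against 9.21%). With the name prefix as a covariate, 9 of the 99 fell (9.09%) against 7.47% of all genes, and 5 rose (5.05%) against 8.77%, so that under this fit the share of falling genes was close to that of all genes. Without the MGC library GS50501, 7 of the 99 fell (7.07%, against 3.16% of all genes), and without the follicles of CS50501 and CS71701 the count was also 7, against 2.85% of all genes.

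Of the 12 genes that fell in MGCs, 7 were called in each of the 26 fits that left out 1 library, and 4 of these 7 were also called with the prefix as a covariate. The calls of the genes ranked 9, 30 and 64 were lost under that covariate, at adjusted p-values of 0.057, 0.096 and 0.053. The gene ranked 80 ranged from 178 to 449 CPM in small MGC libraries (median 190), from 92.5 to 166 in medium ones (median 132) and from 66.6 to 164 in large ones (median 120). All 8 small libraries of this gene lay above all its medium and large libraries. Its slope was -0.13 log2 per mm (SE 0.02, adjusted p from edgeR 0.00068). The gene ranked 64 had the steepest slope, -0.42 (SE 0.08, adjusted p 0.00147), with 1.19 to 63.2 CPM in small libraries (median 9.02), 0.16 to 5.07 in medium ones (median 2.01) and 0.26 to 3.48 in large ones (median 1.25). Its highest value, in a small library, stood far above the median of its stage, and small and large libraries overlapped. The gene ranked 9 ranged from 33.9 to 62.3 CPM in small MGC libraries (median 38.2), 17.6 to 43.1 in medium ones (median 26.2) and 7.73 to 44.9 in large ones (median 20.4), with a slope of -0.15 (SE 0.03, adjusted p 0.0043). These 3 genes were low in oocytes, where their stage medians were at most 3.86 CPM and the gene ranked 64 did not pass the filter.

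The 2 genes that rose in MGCs did so at adjusted p-values close to the threshold. ENSBTAG00000006413, ranked 48, had 5.81 to 25.2 CPM in small MGC libraries (median 10.3), 11.7 to 27.8 in medium ones (median 20.3) and 14.97 to 31.1 in large ones (median 20.02). Its slope in MGCs was 0.10 log2 per mm (SE 0.03, adjusted p from edgeR 0.036), and the stages overlapped. In the CC pools it had 26.9 to 41.9 CPM in small, 31.2 to 92.1 in medium and 7.69 to 26.8 in large follicles, so that it was highest in medium and lowest in large ones. In oocytes it fell with diameter, from 77.9 to 159 CPM in small (median 100.5) and 66.0 to 117 in medium (median 102) to 48.2 to 121 in large follicles (median 70.2), with a slope of -0.08 (SE 0.02, adjusted p 0.041). It was the only one of the 100 genes past the threshold in both cell types. The difference between its MGC and oocyte log2(CPM + 1) values of the same follicle rose with diameter, from a median of -3.20 in small follicles and -2.14 in medium to -1.79 in large ones (rho 0.63, two-sided permutation p = 0.0007 with 100000 resamples, n = 26). This gene was picked for that test after both calls were known. Those calls favour such a rise, so the p-value is no separate support. In MGCs 17 of the 26 fits that left out 1 library kept its call, in oocytes 13 did, and with the prefix as a covariate the adjusted p was 0.148 in MGCs and 0.998 in oocytes.

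ENSBTAG00000001126, ranked 7, had 20.5 to 59.1 CPM in small MGC libraries (median 27.0), 22.3 to 61.6 in medium ones (median 30.2) and 29.4 to 76.5 in large ones (median 42.4). Its slope was 0.09 log2 per mm (SE 0.03, adjusted p from edgeR 0.0498), and only 5 of the 26 fits that left out 1 library kept the call. With the prefix as a covariate the call was lost (adjusted p 0.0999). In the CC pools the same gene had 11.7 to 30.8 CPM in small follicles (median 23.0), 15.6 to 22.8 in medium ones (median 19.9) and 6.59 to 18.4 in large ones (median 12.7). Its medians therefore ran in opposite orders in the cells around the oocyte and in the follicle wall. In oocytes its slope was -0.01 (SE 0.05, adjusted p 0.945).

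In oocytes 92 of the 100 genes passed the filter, and 7 of the 100 had a mean below 1 CPM. The median slope of the 92 was -0.05 log2 per mm, against 0.00 for all 12374 genes tested, and 67 were negative (72.8%, against 48.4% of all genes). Of the 92 genes 13 fell with diameter (14.1%), against 3.65% of all genes tested and 5.07% of the ranked genes tested. None rose, against 2.83% of all genes, and at an unadjusted p under 0.05 there were 35 negative slopes (38.0%, against 10.7% of all genes) and 2 positive ones (2.17%, against 9.92%). DESeq2 called 22 falling (23.9%, against 5.44% of all genes) and 0 rising, against 5.46%. The count depended on single follicles, as did that over all genes. Without the oocyte OS50501, 3 genes were called falling (3.26%, against 1.46% of all genes). Without OS71701, OL62802 or OL70703 the count was 8 (8.70%), against 2.64%, 2.43% and 2.47% of all genes. Without both OS50501 and OS71701 it was 2 (2.17%, against 0.70%). With the prefix as a covariate edgeR called no gene of the 12374 in either direction, although 332 had a negative and 249 a positive slope at an unadjusted p under 0.05. Of the 92 genes 8 then had a negative slope and 0 a positive slope at an unadjusted p under 0.05. The fit of all 30 follicles, in which the oocytes that the study removed return, called no gene in oocytes either, with 380 negative and 381 positive slopes at an unadjusted p under 0.05.

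The gene with the lowest adjusted p in oocytes was ranked 75, with 130 to 500 CPM in small follicles (median 162), 118 to 171 in medium ones (median 155) and 91.1 to 140 in large ones (median 111). Its slope was -0.14 log2 per mm (SE 0.03, adjusted p from edgeR 0.0056), and the stages overlapped. The gene ranked 10 ranged from 133 to 220 CPM in small oocytes (median 172), 55.1 to 140 in medium ones (median 117) and 64.3 to 164 in large ones (median 78.3), with a slope of -0.13 (SE 0.03, adjusted p 0.0087). In CC pools that gene was lowest in large follicles too, at 234 to 429 CPM (median 266) against 351 to 1522 in small ones (median 481). Both genes kept an adjusted p of 0.047 without the follicles of CS50501 and CS71701, and they were the only 2 that did. The most abundant gene, ranked 91, also fell in oocytes, from a median of 1067 CPM in small and 610 in medium to 537 in large follicles (slope -0.17, SE 0.05, adjusted p 0.029). The 4 other genes of its stretch of the table were not past the threshold in oocytes, and none of the 5 was in MGCs, where the lowest adjusted p was 0.372.

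None of the chosen genes fell past the edgeR threshold in both MGCs and oocytes, and DESeq2 called 0 of them falling in both. At an unadjusted p under 0.05, 1 chosen gene had a negative slope in both. The same overlaps over all genes tested were not computed, so nothing further is read from these counts. Among the 91 genes tested in both, 39 had negative slopes in both and 5 had positive slopes in both. Another 20 were negative in MGCs and positive in oocytes, and 27 the reverse. The same sign counts over all genes tested were not computed either, so nothing further is read from them. Within stages the median rho of the chosen genes in MGCs was 0.01, -0.04 and -0.13 in small, medium and large follicles, against -0.01, 0.00 and -0.13 for all ranked genes. In oocytes it was -0.04, 0.05 and 0.05, against -0.06, 0.00 and -0.04. The 2 genes of lowest rho in CC pools were not past the threshold elsewhere. ENSBTAG00000051862 had slopes of -0.14 in MGCs (SE 0.05, adjusted p 0.114) and -0.11 in oocytes (SE 0.03, adjusted p 0.06), and ENSBTAG00000002306 had -0.03 (SE 0.03, adjusted p 0.579) and -0.10 (SE 0.03, adjusted p 0.071).

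**Figure D5:**
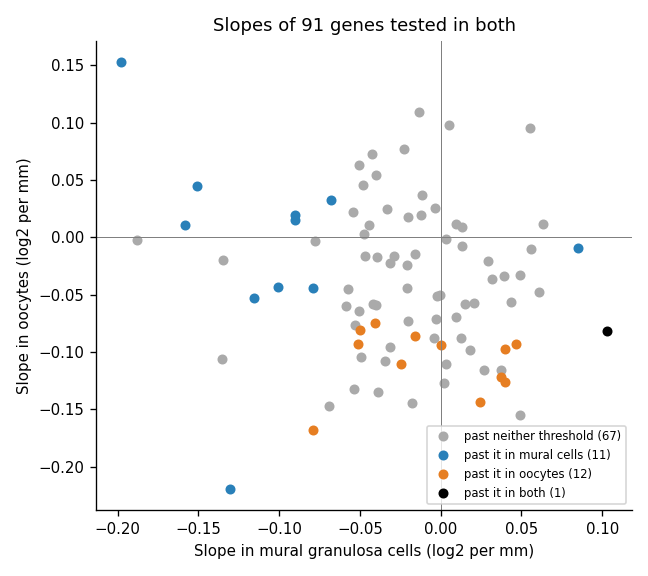
Slope on follicle diameter in MGCs (x axis) against that in oocytes (y axis), both in log2 per mm from edgeR, for the 91 chosen genes tested in both. Each point is 1 gene and colours mark an adjusted p under 0.05 in one or both cell types. A single gene, ranked 48, is past the threshold in both, with a slope of 0.10 in MGCs and -0.08 in oocytes.

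In level the chosen genes spanned a wide range of ratios between cell types. Their mean CPM was higher in CC pools than in MGCs for 62 of the 100 genes, against 53.0% of all ranked genes, and more than 4-fold higher for 5. Compared with oocytes, it was higher in CC pools for 49 of the 100 genes, against 56.7% of all ranked genes, more than 4-fold higher for 28 and more than 4-fold lower for 12. The shares of all ranked genes past 4-fold were not computed, so nothing further is read from the 4-fold counts. CC pools and oocytes were both amplified by SMART-seq2, with more PCR cycles for the single oocytes than for the CC pools, and MGCs were not. The part of these differences in the ratios was not tested.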

How the data were processed

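RNA-seq libraries of MGCs, CC pools and oocytes of 30 bovine follicles were analysed from the deposited count table, which holds counts per gene made by the authors without normalization (27270 Ensembl identifiers, 90 columns). According to the study's methods reads were aligned with STAR to ARS-UCD1.2 and counted over exons with featureCounts, whereas the submitters' processing notes name HISAT2 2.2.1. Which aligner made the counts was not settled. Amplified reads carry no molecular identifiers.

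CPM were computed from column totals. Slopes on diameter were fitted per cell type with edgeR 4.0.16 (TMM, glmQLFit, glmQLFTest, R 4.3.3) on genes with CPM above 1 in at least 15 of 26 libraries, and adjusted by Benjamini-Hochberg over all genes tested. The SE is the slope divided by the square root of its F statistic. DESeq2 1.42.0 was an alternative. Fits were tested on simulated data. Other values used Python 3.11.15, numpy 2.4.6, scipy 1.17.1, pandas 2.3.3 and matplotlib 3.10.9. Where nothing says that follicles came from separate animals, p-values measure the spread between follicles.

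The members and lists were chosen with earlier results of these data known. Genes to be named were those of lowest rho, highest CPM or lowest adjusted p. The rule asked for symbols, and with none at most 2 falling and 2 rising identifiers are given. Planned gene lists and cell type markers could not be applied, and no sequences are shown.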

Additional observations from a re-analysis of the deposited data

Results flagged for a closer look

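Within stages, 39 sets of 8 or 10 libraries were examined for a library far from the others, and 4 were found, where chance flags about 1 set in 20. All 4 concerned the genes that rose in MGCs. The gene ranked 48 had 92.1 CPM in the medium CC pool CM71704, above the other medium pools. The gene ranked 7 had 61.6 CPM in the medium MGC library GM62201, 30.4 CPM in the small oocyte OS50502 and 20.6 CPM in the large oocyte OL71801, each above the other libraries of its stage. The gene ranked 48 also had slopes of opposite sign in MGCs and oocytes. The rho between diameter and its MGC level minus its oocyte level was 0.63 (n = 26 follicles, permutation p = 0.0007). That test was chosen after its calls were seen, and those calls favour its outcome.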

How the results depend on the processing

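The counts of chosen genes past the threshold in MGCs and oocytes were recomputed with other size factors, other filters, DESeq2, stage in place of diameter, the prefix of the follicle name as a covariate, all 30 follicles and each library left out, and, chosen after seeing the data, without the follicles of CS50501 and CS71701. The 12 genes falling in MGCs became 7 without these follicles and stayed between 9 and 14 in the other fits with all libraries. The 2 rising in MGCs became 5 with the prefix and 0 with all 30 follicles (against 4.08% of all genes). For large against small follicles 1 rose in MGCs (1.01%, against 2.14% of all genes). The 13 falling in oocytes became 0 with the prefix, 0 with all 30 follicles, 22 with DESeq2 and 2 without those of CS50501 and CS71701. For large against small follicles they became 22 (23.9%, against 5.79% of all genes). The 0 rising in oocytes became 1 for large against small follicles (1.09%, against 5.32% of all genes). Leaving out 1 library gave 7 to 12 falling and 0 to 2 rising in MGCs, and 3 to 19 falling and 0 to 1 rising in oocytes. Of the 100 genes, 50 were chosen again on TMM-scaled CPM, 58 with a mean CPM of at least 30, 28 with ranks centred within prefixes, 38 without those of CS50501 and CS71701 and 51 to 94 without 1 pool. The choice kept 74 genes with a mean CPM of at least 1, 67 with Pearson's r on log2 values, 67 with all 30 follicles and 86 without CM72403. The cause of these shifts was not tested.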
